A study of Mus musculus with 12 samples.

Results

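Broad H3K27ac domains of cardiomyocytes (CMs) were loci in which the mark ran without a break over 10000 bp or more. They were taken from the deposited lists of H3K27ac-enriched regions, 1 from control CMs and 1 from RIP140-null (KO) CMs. Regions of both lists on chromosomes 1 to 19 and X were merged into a locus where they overlapped by 1 bp or more. A locus was kept as broad where either list held a region of at least 10000 bp in it. Of 58274 loci in all, 2357 (4.04%) were broad, and they held 42.8 of the 193 Mb (22.1%) that all loci spanned. Region width chose these loci, so widths and the differences in width between the lists are given as a description with no test.

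Acetylation of histone H3 at lysine 27 marks active enhancers and promoters. Most acetylated stretches are short, and the long ones, in which neighboring enhancers and a promoter run together, are known to lie at genes that give a cell type its identity, in the heart those for cardiac transcription factors and the contractile and fuel-handling machinery. RIP140, the product of *Nrip1*, is a corepressor that binds nuclear receptors such as the estrogen-related receptors (ERRs) and PPARs, which switch on fatty acid and mitochondrial genes in cardiac muscle.

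H3K27ac was profiled by CUT&RUN, in which an antibody directs a nuclease to chromatin and the released DNA is sequenced. Control CMs came from *Nrip1* f/f mice without Cre, and KO CMs came from *Nrip1* f/f littermates carrying Cre under the Nkx2.5 promoter (cs*Nrip1*-/-), all on the C57BL/6J background and 10 to 12 weeks old. CMs were isolated by collagenase perfusion and enriched by slow centrifugation, 200000 per experiment, with 3 H3K27ac and 3 IgG replicates per genotype, 12 samples in all. A region was listed where at least 2 of the 3 replicates held it over IgG, so each genotype has 1 list of positions, with no height, no value per replicate and an unknown depth. Both genotypes carry the floxed alleles, and only the KO expresses Cre, so an effect of Cre itself and of the loss of RIP140 cannot be told apart. The control list held 53750 regions that covered 151 Mb, and the KO list held 45517 regions that covered 154 Mb, so the KO list was made of fewer and longer regions throughout, which was not tested as a source of the differences in width described here. Intervals of shares below are Wilson intervals at 95% and cover the counting of loci only. Those of the motif ratios are exact binomial intervals at 95% from the match counts, with matches taken as independent.

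DNA from the broad loci is shown here for matches to the motifs of MEF2, a factor of muscle genes, and of ERR, the receptor family that RIP140 binds (searched as TCAAGGTCA on both strands). Each window is from GRCm38, plus strand, 5′ to 3′, with the match in capitals and 25 bases on either side. All windows lie outside annotated exons, and all but the *Dhrs3* window lie in an H3K27ac region of both lists. *Cd36* imports fatty acids into CMs, *Mbnl1* is a splicing regulator, *Ppargc1a* encodes the coactivator PGC-1α, *Pln* encodes phospholamban, the inhibitor of the sarcoplasmic calcium pump, *Dhrs3* encodes a retinaldehyde reductase, and *Ablim1* encodes an actin-binding LIM protein. These loci are shown because they are among the longest or, for *Nrip1*, because the locus was much shorter in KO CMs.
Cd36 MEF2, chr5:17854559-17854618: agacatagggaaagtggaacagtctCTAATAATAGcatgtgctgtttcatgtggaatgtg
Mbnl1 MEF2, chr3:60548591-60548650: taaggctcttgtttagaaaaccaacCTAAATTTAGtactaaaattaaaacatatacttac
Ppargc1a MEF2, chr5:51546427-51546486: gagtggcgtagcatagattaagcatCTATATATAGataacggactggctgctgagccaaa
Pln MEF2, chr10:53327439-53327498: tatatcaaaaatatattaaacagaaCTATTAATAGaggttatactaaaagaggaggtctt
Nrip1 ERR, chr16:76299645-76299703: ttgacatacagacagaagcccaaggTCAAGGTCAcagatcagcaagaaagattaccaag
Ppargc1a ERR, chr5:51530148-51530206: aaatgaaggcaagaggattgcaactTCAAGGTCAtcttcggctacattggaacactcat
Dhrs3 ERR, chr4:144917164-144917222: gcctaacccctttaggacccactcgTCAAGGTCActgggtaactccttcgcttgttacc
Ablim1 ERR, chr19:57187739-57187797: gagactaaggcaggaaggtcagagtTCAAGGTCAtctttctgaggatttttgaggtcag

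The *Cd36*, *Mbnl1*, *Ppargc1a*, *Dhrs3*, *Ablim1* and *Nrip1* windows lie in introns of those genes, and the *Pln* window lies at -10225 bp from its TSS, in an intron of the overlapping gene *Cep85l*. The *Dhrs3* window lay in a KO region only, in a gap between control regions.

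Promoters of 4 genes with a TSS in a broad locus are shown for the same reason, because an H3K27ac region of both lists ran across them and they held a match to a cardiac motif. Each is the 250 bases before the TSS, written 5′ to 3′ on the gene's own strand, from RefSeq promoter records on GRCm38.p6, with matches in capitals, and none overlaps an annotated exon. *Synpo2l* encodes a Z-disc protein, *Vcl* encodes vinculin of the intercalated disc, *Slc8a1* encodes the sodium-calcium exchanger, and *Jun* encodes an immediate early transcription factor. The capitals mark a MEF2 match in *Synpo2l*, a CArG box, the site of serum response factor, in *Vcl*, a GATA match (AGATAAG) in *Slc8a1*, and a MEF2 and a GATA match in *Jun*.
Synpo2l, chr14:20668355-20668604, minus strand: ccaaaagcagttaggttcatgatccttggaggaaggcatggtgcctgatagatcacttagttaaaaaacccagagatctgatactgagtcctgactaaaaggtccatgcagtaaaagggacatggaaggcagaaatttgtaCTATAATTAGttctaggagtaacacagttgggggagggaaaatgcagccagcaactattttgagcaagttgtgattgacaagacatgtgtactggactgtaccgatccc
Vcl, chr14:20929148-20929397, plus strand: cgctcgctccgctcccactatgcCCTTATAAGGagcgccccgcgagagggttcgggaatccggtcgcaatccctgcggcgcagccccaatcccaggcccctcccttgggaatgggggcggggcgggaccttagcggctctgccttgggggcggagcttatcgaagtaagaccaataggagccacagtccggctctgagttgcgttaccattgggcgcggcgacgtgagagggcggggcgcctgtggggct
Slc8a1, chr17:81738388-81738637, minus strand: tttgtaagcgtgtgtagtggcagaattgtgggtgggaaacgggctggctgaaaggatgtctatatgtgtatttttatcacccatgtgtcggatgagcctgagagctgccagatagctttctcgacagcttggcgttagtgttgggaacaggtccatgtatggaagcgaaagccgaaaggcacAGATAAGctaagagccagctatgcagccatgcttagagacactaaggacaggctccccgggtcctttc
Jun, chr4:95052223-95052472, minus strand: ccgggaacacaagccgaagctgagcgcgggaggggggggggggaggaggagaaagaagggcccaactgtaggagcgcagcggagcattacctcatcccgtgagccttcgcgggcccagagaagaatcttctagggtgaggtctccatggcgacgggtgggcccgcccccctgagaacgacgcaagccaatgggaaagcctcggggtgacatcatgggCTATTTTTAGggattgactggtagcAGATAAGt

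The region over the *Synpo2l* promoter was 8375 bp wide in control CMs and 18670 bp in KO CMs. Over the *Slc8a1* promoter the widths were 8679 and 11727 bp, over the *Vcl* promoter 14088 and 15947 bp, and over the *Jun* promoter 8815 and 10086 bp. These promoters were picked after their values were seen, and others went the other way: over the promoter of *Ablim1* with an NKX2-5 match the widths were 11905 bp in control and 10044 bp in KO CMs. Such matches were rare in promoters in general. Among 1009 RefSeq promoters (775 genes) in broad loci, 0.595% held a MEF2 match, 1.98% a CArG box and 2.28% a GATA match. In the 9753 promoters (8182 genes) in other loci, those shares were 0.492%, 1.02% and 1.45%. Of all 20054 promoters (16426 genes), which include those outside any locus, they were 0.459%, 1.38% and 2.39%. These differences were not tested.

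Broad loci also held microRNA genes. Of 1005 RefSeq miRNA hairpins, 166 lay in any locus, and 32 of these (19.3%) lay in 29 broad loci. Broad loci made up 22.1% of the length of all loci, so nothing is read from that share. Mature sequences of those known from the heart are shown, with the seed (bases 2 to 8), which pairs with target mRNAs, in capitals, and grouped by seed.
let-7a-5p: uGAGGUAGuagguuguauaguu
let-7f-5p: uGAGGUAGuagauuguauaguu
let-7c-5p: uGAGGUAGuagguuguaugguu
let-7b-5p: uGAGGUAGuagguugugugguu
miR-29b-3p: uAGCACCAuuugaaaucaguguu
miR-29c-3p: uAGCACCAuuugaaaucgguua
miR-30a-5p: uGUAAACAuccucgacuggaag
miR-21a-5p: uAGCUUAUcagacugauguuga

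The 4 let-7 miRNAs share the seed GAGGUAG and came from 2 broad loci. The locus with let-7a-1 and let-7f-1 (chr13:48536581-48547760) was covered over 11121 bp in control CMs and 10319 bp in KO CMs. The locus with let-7c-2 and let-7b (chr15:85696441-85710684), which lies nearest *Ppara*, was covered over 7500 bp in control CMs and 14189 bp in KO CMs. The let-7 locus near *Ppara* was thus the longer in KO CMs, whereas the other let-7 locus was of similar length in both lists. The miR-29b-2 and miR-29c hairpins, which share the seed AGCACCA and are known to target collagen mRNAs, lay in a locus covered over 10628 bp in control and 8110 bp in KO CMs (chr1:195028418-195039045). The miR-30a locus (chr1:23253366-23288622) was covered over 33180 and 33965 bp, respectively. The miR-21a locus (chr11:86576961-86588384) was covered over 11328 bp by 1 control region, but over 6858 bp in KO CMs, where the widest region was 3682 bp.

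A broad locus spanned 14889 bp at the median (quartiles 12113 and 20506 bp), and 622 spanned over 20000 bp, 219 over 30000 bp and 42 over 50000 bp. The longest was at *Mbnl1*, where H3K27ac covered 115660 bp in control CMs and 116544 bp in KO CMs of a locus of 117505 bp (chr3:60494915-60612419). *Cd36* came next, with 101117 and 100765 bp of 102717 bp covered (chr5:17806906-17909622). The *Mbnl1* locus ran from -6264 to 111240 bp of the TSS (negative values lie upstream) and took in 74.9% of the gene. The *Cd36* locus ran from -20875 to 81841 bp, over 76.5% of the gene. The widest region was the 90338 bp region at *Cd36* in control CMs, and in KO CMs the 80022 bp region at *Susd6*.

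The other 13 of the 15 longest loci were at or near *St5*, *Susd6*, *Rapgef2*, *Dhrs3*, *Zmiz1*, *Ablim1*, *Fancc*, *Ptprg*, *Rbpms*, *Pln*, *Lmo7*, *Zbtb16* and *Ppargc1a*. Their genes included actin-binding and LIM proteins (*Ablim1*, *Lmo7*), an RNA-binding splicing regulator (*Rbpms*) and transcriptional regulators (*Zmiz1*, *Zbtb16*, *Ppargc1a*). The locus with *Fancc* as the gene of the nearest TSS lay inside the overlapping gene *2010111I01Rik*, and 17.9% of it lay in *Fancc*. At *Pln*, a gene of 8321 bp, H3K27ac covered 64090 bp in control and 64874 bp in KO CMs (chr10:53300590-53368142), so the gene itself took up 12.3% of its locus. At *Ppargc1a* it covered 61602 bp in 6 control regions and 58319 bp in 5 KO regions (chr5:51508300-51574184). Covered length in KO CMs was between 0.947 (*Ppargc1a*) and 1.06 (*Fancc*) times that in control CMs at all 15, so none of the longest loci differed by even 1.5-fold between the lists.

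**Figure D1:**
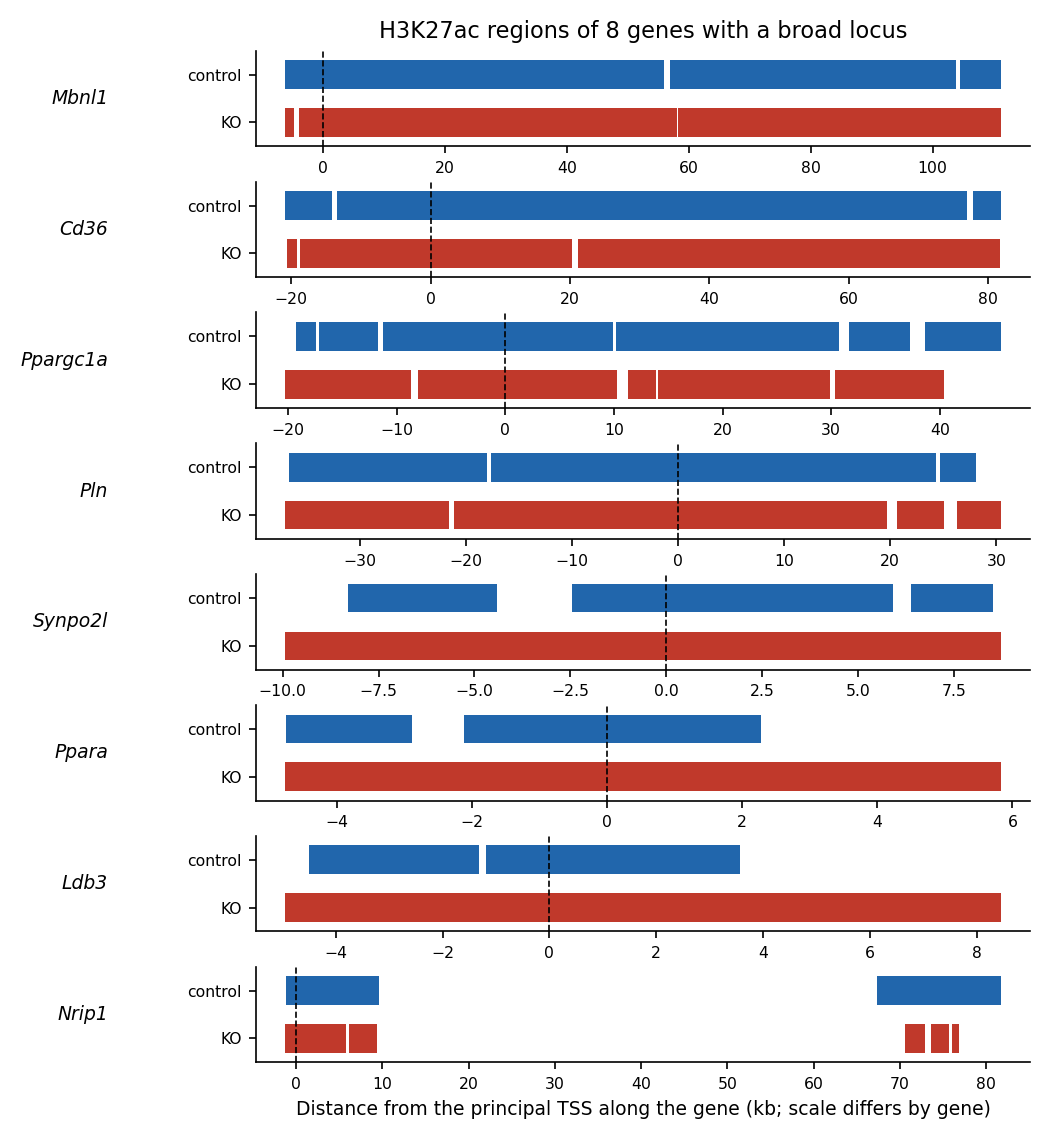
H3K27ac regions (bars) of control (blue) and KO (red) CMs at the broad loci of 8 genes, plotted in kb from the principal TSS (dashed line) along the gene, with a scale of its own for each gene and the shortest gaps too thin to see. *Mbnl1*, *Cd36*, *Ppargc1a* and *Pln* were covered over nearly the same stretch in both lists, the shorter loci of *Synpo2l*, *Ppara* and *Ldb3* were 1 region in KO CMs and 2 or more in control CMs, and of the *Nrip1* loci shown, over the TSS and at the 3′ end, the latter was 14439 bp in control and 5276 bp in KO CMs.

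Of the 2357 broad loci, 1114 (47.3%) reached 10000 bp in both lists, 796 (33.8%) in KO CMs only and 447 (18.96%) in control CMs only. The control list held 1664 regions of at least 10000 bp, 3.10% of its regions, and the KO list held 2016, 4.43% of its regions. The limit cut through a continuum of widths. Just inside it were loci at *Palld* (widest region 10000 bp, KO), *Gpr15* (10001 bp, control) and *Vps26c* (10002 bp, KO), and just outside it were loci at *Nsun7* (9995 bp, control), *Eno1* (9998 bp, KO) and *Dhrs7c* (9999 bp, KO). Many loci broad in 1 list only were also near the limit in the other. Among the 796 broad in KO CMs only, 295 (37.1%) had a control region of at least 8000 bp, 417 had at least 10000 bp of control coverage in all, and 2 had no control region. Among the 447 broad in control CMs only, 206 (46.1%) had a KO region of at least 8000 bp, 239 had at least 10000 bp of KO coverage in all, and none was without a KO region.

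The summed covered length of the broad loci was 37.99 Mb in control CMs and 39.9 Mb in KO CMs. Of the span of these loci, 81.9% was covered in both lists, 6.90% in control CMs only and 11.2% in KO CMs only. In the 30290 other loci held by both lists, those shares were 67.2%, 13.8% and 19.01%. On the log2 scale, covered length in KO over control CMs had a median of 0.06 over the 2355 broad loci held by both lists (quartiles -0.08 and 0.22) and 0.08 over the other loci (quartiles -0.24 and 0.43). By class, the median was 0.02 for loci broad in both lists, 0.27 for those broad in KO CMs only and -0.18 for those broad in control CMs only. These signs follow from the classes. Chosen on control widths alone, the broad loci had a median of -0.02, and chosen on KO widths alone, 0.10. Each of these 2 choices favors the list that made it. Choices that treated both lists alike gave a median above 0. It was 0.02 with the limit met in both lists and 0.04 with the same number of widest regions from each list. The source of this small shift was not tested.

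Covered length was over 1.5-fold longer in KO CMs at 152 broad loci (6.45%) and over 1.5-fold shorter at 61 (2.59%). Of all 32645 loci held by both lists, 17.3% were over 1.5-fold longer in KO CMs and 10.3% were over 1.5-fold shorter. The rule used these widths and nothing is read from those shares. The spread of the log2 ratio narrowed with span, which is given as a description. The rule kept loci that reached 10000 bp in 1 list only, and these were shorter at the median than those broad in both. Part of the narrowing can follow from the rule, and this was not tested. Among the 704 shortest broad loci, the SD of the log2 ratio was 0.51, with 89 over 1.5-fold longer in KO CMs and 33 shorter. It was 0.28 among the 534 loci of 15000 to 20000 bp (22 longer, 8 shorter) and 0.19 among the 403 of 20000 to 30000 bp (6 longer, none shorter). Among the 177 loci of 30000 to 50000 bp and the 42 above, it was 0.15 and 0.10, and none of these 219 loci differed by over 1.5-fold.

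**Figure D2:**
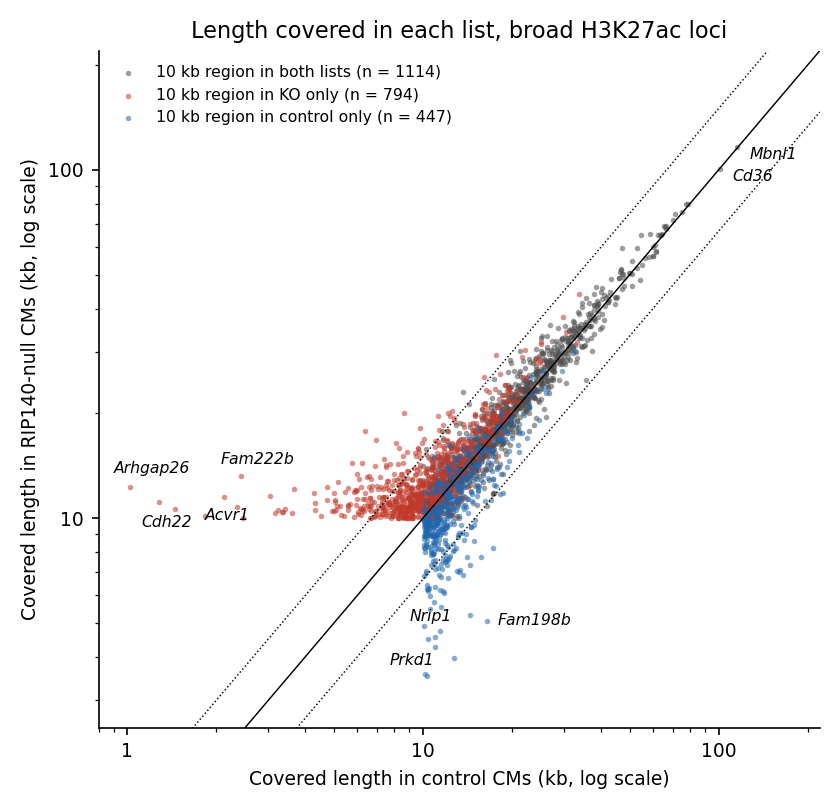
Each point is a broad locus held by both lists, with its covered length in control CMs (x) and RIP140-null CMs (y), both in kb on log scales, the solid line marking equal lengths and the dotted lines 1.5-fold differences. Loci of great length lie near the solid line, while loci broad in KO CMs only (red) reach down to 1025 bp in control CMs at *Arhgap26*, and loci broad in control CMs only (blue) include the *Nrip1* and *Fam198b* loci far below it.

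**Figure D3:**
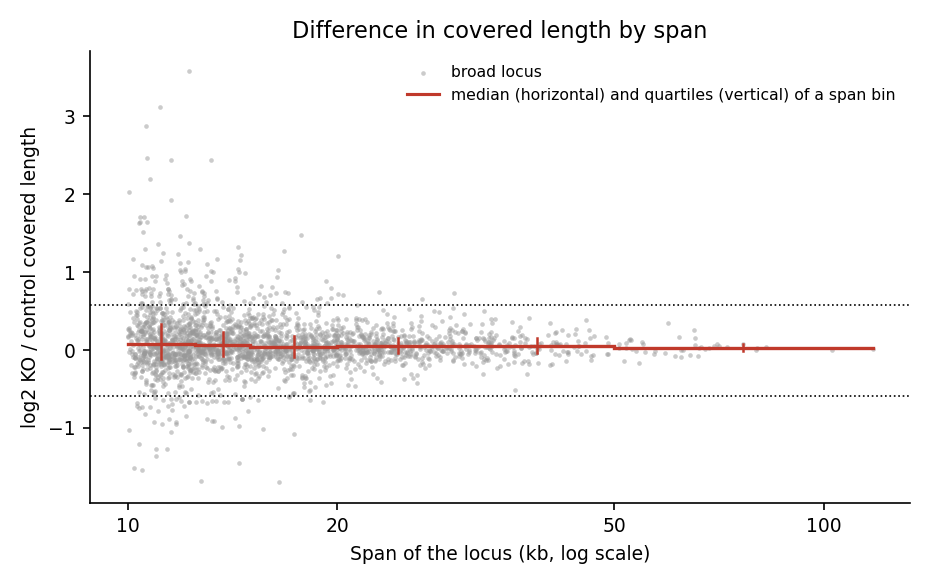
Covered length in KO over control CMs (log2) of each broad locus (gray points) by its span in kb (log scale), with the median and quartiles of each span bin in red and dotted lines at 1.5-fold. The medians stay between 0.03 and 0.08 in all 6 bins while the spread narrows, and no locus over 30000 bp passes a dotted line. Loci broad in 1 list only are shorter at the median, so the width rule can produce part of this narrowing.

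Part of the difference in width lay in how a stretch was divided. A broad locus held 1.90 control regions and 1.54 KO regions on average, and at most 7 and 6, respectively. In 789 broad loci (33.5%) 1 KO region ran over 2 or more control regions, whose mean gap was 1599 bp at the median, whereas in 400 (17.0%) 1 control region ran over 2 or more KO regions. A further 639 loci held 1 region in each list, and 527 held 2 or more in both. At the loci with 1 region in each list, the edges lay 588 bp apart at the median, and 45.7% of them were within 500 bp. Regions filled 91.4% of a broad locus in control CMs and 95.6% in KO CMs at the median. *Dhrs3* had 6 control regions, the widest 26711 bp, and 2 KO regions, the widest 71485 bp, although covered length was 71140 and 74979 bp. *Ptprg* had 5 control regions and 1 KO region of 68388 bp, with 66131 bp covered in control CMs. At *Cd36* the order was the other way round, with 3 control and 4 KO regions.

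The loci with the greatest gain in KO CMs, named by the nearest TSS, were short ones. *Efnb2*, which encodes the membrane ligand ephrin-B2, and *Zhx3*, which encodes a zinc-finger homeobox protein, were the loci with no control region. The KO region near *Efnb2* was 12145 bp (chr8:8669554-8681698, from -20456 to -8312 bp of the TSS). Its MEF2 and ERR matches lay in the body of another gene, *Arglu1*. The region with a TSS of *Zhx3* was 10712 bp (chr2:160865256-160875967). At *Arhgap26*, a stretch within the gene was covered over 1025 bp in control CMs and 12257 bp in KO CMs (log2 ratio 3.58). Next came *Cdh22*, a cadherin (1275 and 11130 bp, log2 ratio 3.13), and a locus near *Fam92b* (1445 and 10636 bp, log2 ratio 2.88). Also among the 10 were *Acvr1*, a BMP type I receptor (2121 and 11523 bp), *Fam222b* (2427 and 13178 bp), a second locus near *Fam92b* (2358 and 10766 bp) and the heat shock chaperone *Hspa8* (2466 and 10034 bp). Of these 10 loci, 1 held a protein-coding TSS, that of *Zhx3*, against 37.8% of all loci broad in KO CMs only.

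The loci with the greatest loss in KO CMs, named by the nearest TSS, were those nearest *Fam198b* (16488 bp in control and 5083 bp in KO CMs, log2 ratio -1.70), *Prkd1*, a protein kinase D (12733 and 3957 bp, -1.69), *Rasal2*, a Ras GTPase-activating protein (10293 and 3527 bp, -1.55), and *Stk17b* (10198 and 3559 bp, -1.52). Their midpoints lay far from those TSSs, at 143203, 122666, 124621 and 158904 bp, respectively. *Nrip1* itself was the fifth (log2 ratio -1.45). The other 5 were nearest *N4bp1* (10977 and 4261 bp), *Prep* (11001 and 4556 bp), *Magi1* (11397 and 4738 bp), *Gm36028* (10383 and 4509 bp) and *Cnst* (17322 and 8193 bp, log2 ratio -1.08). None of the 10 held a protein-coding TSS, against 30.2% of all loci broad in control CMs only. In each of the 10 the control list held 1 region and the KO list 1 to 3. The ratio chose these loci, and nothing is read from these counts.

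*Nrip1* had 5 broad loci nearest to it, with a summed covered length of 53010 bp in control CMs and 53189 bp in KO CMs. The gene lies at chr16:76287400-76373827 on the minus strand, and its last exon, of 7616 bp, holds the whole coding sequence and is the exon removed in the KO. The locus at that end (chr16:76292112-76306550) was 1 control region of 14439 bp that reached 2904 bp (38.1%) into the last exon. In KO CMs it held 3 regions of 810, 2146 and 2320 bp, 5276 bp in all, and no KO region touched the last exon. Outside the exon, that locus was covered over 11535 bp in control CMs and 5276 bp in KO CMs. The loxP sites flank the last exon, in intron 3 and beyond the 3′ UTR, but their exact positions are not given in the sources used here, so missing DNA and missing acetylation cannot be told apart next to the exon. The locus over the TSS (chr16:76364174-76375115) was covered over 10820 bp in control CMs and 10417 bp in KO CMs. The other loci were covered over 10748 and 11009 bp (chr16:76314635-76327711), 7242 and 12297 bp (chr16:76351315-76363611, log2 ratio 0.76) and 9761 and 14190 bp (chr16:76430104-76444293, upstream of the gene, log2 ratio 0.54). Thus H3K27ac remained over the *Nrip1* promoter and the upstream part of the gene in the KO and was shorter at its 3′ end.

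A protein-coding TSS lay in 996 broad loci (42.3%, interval 40.3% to 44.3%), against 17.6% (17.32% to 17.96%) of the 55917 other loci. Longer loci can hold more, and per Mb the broad loci held 25.3 genes with a TSS against 73.3 in the others. For the 1482 loci just short of the limit, with a widest region of 8000 to 10000 bp, the share was 34.1% (31.8% to 36.6%). It was 50.3% (47.3% to 53.2%) for loci broad in both lists, 37.8% (34.5% to 41.2%) for those broad in KO CMs only and 30.2% (26.1% to 34.6%) for those broad in control CMs only. These classes also differ in span, which was 19205.5, 12806.5 and 12594 bp at the median, respectively. Of the length of broad loci, 76.2% lay in protein-coding gene bodies (73.1% intronic, 3.06% exonic), against 64.2% (59.1% and 5.04%) in the others. Genes with a TSS in a broad locus were 51834 bp long at the median, against 23116 bp for other genes with a TSS in a locus.

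Acetylation of broad loci lay mostly past the TSS. In the 773 broad loci with the principal TSS of exactly 1 gene, 84.4% of the span lay downstream of the TSS at the median (quartiles 67.4% and 91.6%), with 2579 bp upstream and 11879 bp downstream. In the 7999 other such loci the median was 62.7%, with 977 and 1602 bp. More than 50% of the span lay downstream in 668 broad loci (86.4%) and in 74.2% of the others. At 5000 bp past the TSS a region was present at 85.0% of these genes in control CMs and 89.5% in KO CMs, and at 10000 bp past it at 64.8% and 69.0%. At 5000 bp before the TSS the shares were 29.4% and 30.1%. The shape was therefore alike in both genotypes, with long coverage over the start of the transcribed gene and little before it.

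**Figure D4:**
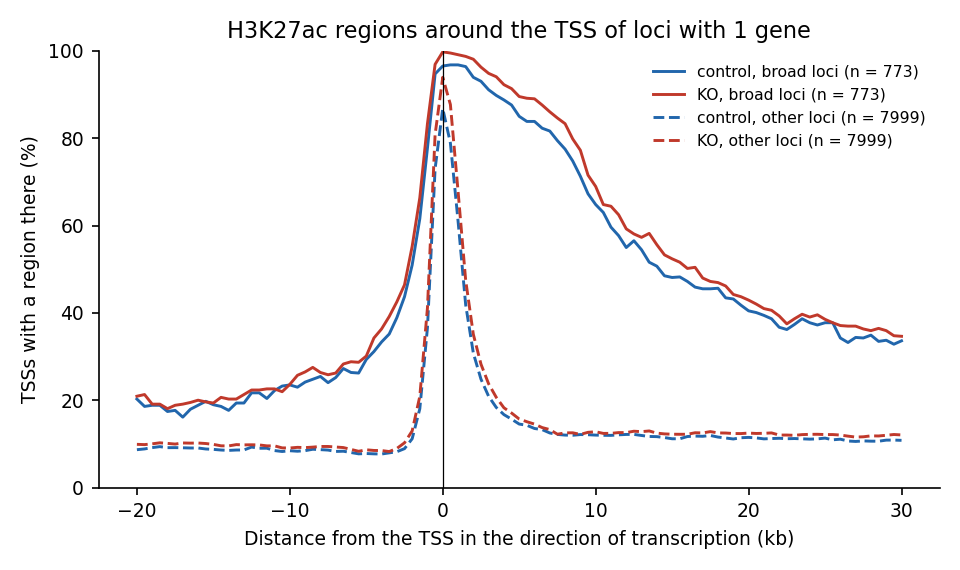
Share of TSSs (%) with an H3K27ac region at each distance from the TSS (kb, positive in the direction of transcription), for the 773 broad loci (solid) and 7999 other loci (dashed) with the principal TSS of 1 gene, in control (blue) and KO (red) CMs. In broad loci coverage falls slowly past the TSS, to 64.8% in control and 69.0% in KO CMs at 10 kb, and steeply before it.

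Of 11424 protein-coding genes with a TSS in any locus, 1034 (9.05%) had one in a broad locus. Among genes on the lists of cardiac functions the count was 101 of 259 with a TSS in any locus (39%), and among housekeeping genes, of which *Sdha* is also on the TCA cycle list, it was 0 of 12, whose regions at the TSS were at most 8130 bp. The lists were chosen with earlier results of these data known, and their counts are set beside the 9.05% as a description. Counts of list genes with a longer or shorter locus in KO CMs are given below without a share over all broad loci. The median log2 ratio of all broad loci was itself above 0 (0.06), so more of them were longer than shorter in KO CMs. Over all broad loci held by both lists, 6.45% were over 1.5-fold longer in KO CMs and 2.59% were over 1.5-fold shorter. Nothing is read from the counts of list genes. A TSS lay inside a region of at least 10000 bp for 641 genes in control CMs and 847 in KO CMs. They shared 481, which was 75.04% of the control genes and 56.8% of the KO genes.

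**Figure D5:**
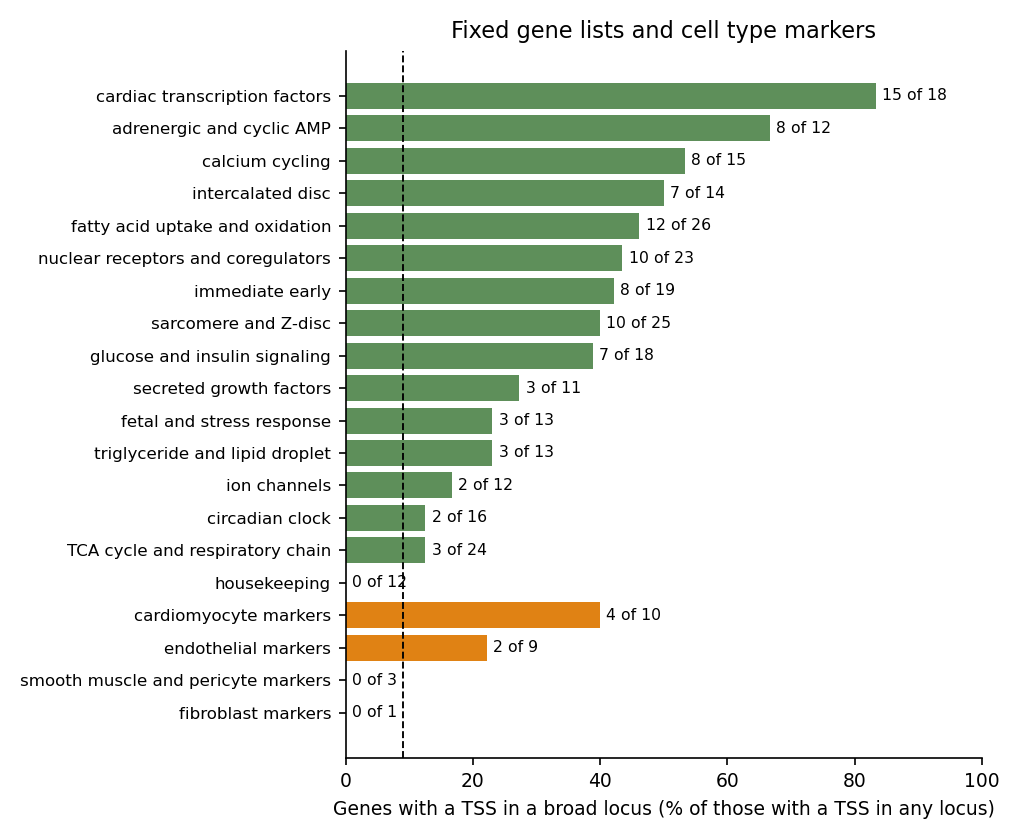
Genes of each list with a TSS in a broad locus, as a percent of those with a TSS in any locus (bars, with counts beside them), for lists of functions (green) and cell type markers (orange), with the 9.05% of all protein-coding genes as the dashed line. Cardiac transcription factors stand highest (15 of 18), housekeeping genes at 0 of 12.

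Cardiac transcription factors had the highest count, 15 of 18. *Mef2c*, a MADS-box factor of heart development, had H3K27ac over 56437 bp in control and 55873 bp in KO CMs (chr13:83557789-83615079). *Gata4*, a zinc-finger factor needed for CM gene expression, had 40284 bp in 6 control regions and 45798 bp in 2 KO regions (chr14:63226922-63273628). *Mef2d* (32064 and 36832 bp), *Hand2* (26836 and 27821 bp), *Gata6* (22775 and 23541 bp), *Tbx20* (16313 and 16221 bp) and the homeobox factor *Nkx2-5* (17946 and 16732 bp), whose promoter also drives Cre in the KO, differed by less than 1.5-fold. The largest loss on the list was at the homeobox gene *Meis1* (22794 and 17793 bp, log2 ratio -0.36). Of the 15, 8 were longer and 7 shorter in KO CMs, none by over 1.5-fold. *Hand1*, used in embryonic heart, had no region at a TSS in either list.

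Nuclear receptors and their coregulators had 10 of 23. *Ppargc1a* had by far the longest locus, given above. The others were shorter. *Pparg*, the adipocyte PPAR, had 9903 bp in control and 16417 bp in KO CMs (log2 ratio 0.73), and *Ppara*, the main fatty acid-sensing receptor of heart, had 6263 and 10597 bp (log2 ratio 0.76, chr15:85731013-85741609). *Thra*, a thyroid hormone receptor, had 7957 and 10660 bp, *Rxra*, the shared partner of these receptors, 17036 and 21288 bp, and the coactivator *Ncoa2* 8803 and 10978 bp. The glucocorticoid receptor *Nr3c1* (15352 and 16086 bp), the mineralocorticoid receptor *Nr3c2* (13844 and 11469 bp) and *Ppargc1b* (9700 and 10482 bp) were closer between the lists. A TSS lay in a region of at least 10000 bp for 4 of the list's genes in control CMs and 8 in KO CMs. Of the 10, 7 were longer and 3 shorter in KO CMs, 2 of them (*Ppara*, *Pparg*) by over 1.5-fold. The ERR genes had no broad locus: the region at the TSS of *Esrra* was 5916 bp in control and 4407 bp in KO CMs, at *Esrrb* 8469 and 4103 bp, and at *Esrrg* 2653 and 3265 bp.

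Fatty acid uptake and oxidation had 12 of 26. Besides *Cd36*, *Lpl*, the lipoprotein lipase that frees fatty acids from circulating triglyceride, had 61270 bp in control and 58674 bp in KO CMs, and the whole gene of 26958 bp lay inside its locus (chr8:68862757-68926974). *Hadha* and *Hadhb*, which encode the mitochondrial trifunctional protein, share a locus with 27616 and 27465 bp. *Ech1*, an auxiliary enzyme of β-oxidation, had 22868 and 28662 bp, and the acyl-CoA synthetase *Acsl1* had 20878 and 22791 bp. *Cpt1b*, the muscle carnitine palmitoyltransferase at the entry to mitochondria, had 7690 bp in control and 11018 bp in KO CMs (log2 ratio 0.52), and *Acadl*, the long-chain acyl-CoA dehydrogenase, had 10251 and 8445 bp (log2 ratio -0.28). Of the 12, 4 were longer and 8 shorter in KO CMs, none by over 1.5-fold. Triglyceride and lipid droplet genes had 3 of 13: *Plin2* (18301 and 16865 bp), *Lipe*, the hormone-sensitive lipase (9338 and 11036 bp), and the acyl-CoA thioesterase *Acot7* (8526 and 13429 bp, log2 ratio 0.66), which was over 1.5-fold longer in KO CMs.

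TCA cycle and respiratory chain genes had 3 of 24, a share of 12.5%, near that of all genes (9.05%). They were *Idh2* (13804 and 13878 bp), citrate synthase *Cs* (10490 and 12513 bp) and the adenine nucleotide carrier *Slc25a4* (9984 and 11319 bp). Glucose and insulin signaling genes had 7 of 18. Hexokinase 2, *Hk2*, had the longest of these, 34515 bp in control and 32849 bp in KO CMs, followed by *Pfkfb2* (18723 and 21597 bp) and *Irs1* (15712 and 15559 bp). The kinase *Akt2* had 8368 and 10985 bp.

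Sarcomere and Z-disc genes had 10 of 25. By span, the longest were those of *Lmod2*, leiomodin 2, with 23186 bp in control and 23160 bp in KO CMs, and *Myoz2*, with 18990 and 17764 bp. *Ldb3*, which encodes the Z-disc protein ZASP/Cypher, was covered over 7956 bp in 2 control regions and 13410 bp in 1 KO region (log2 ratio 0.75, chr14:34580208-34593617). *Synpo2l* had 14401 bp in control and 18670 bp in KO CMs. *Tnnt2* (12632 and 14432 bp), *Myl2* (12569 and 15316 bp), *Tpm1* (15068 and 15986 bp) and *Actc1* (11781 and 12214 bp) encode proteins of the thin or thick filament. The cardiac myosin gene *Myh6* and the giant sarcomere gene *Ttn* had none: the regions at their TSSs were 7496 and 7693 bp in control and 7057 and 5986 bp in KO CMs. Of the 10, 7 were longer and 3 shorter in KO CMs, 1 of them (*Ldb3*) by over 1.5-fold.

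Calcium cycling had 8 of 15. Besides *Pln*, the calcium pump gene *Atp2a2* had 11332 bp in control and 16216 bp in KO CMs (log2 ratio 0.52), the L-type channel gene *Cacna1c* 33307 and 32131 bp, and the exchanger gene *Slc8a1* 9550 and 11727 bp. Of the 8, 6 were longer and 2 shorter in KO CMs, none by over 1.5-fold. The ryanodine receptor gene *Ryr2* had a region of 4407 bp in control and 7623 bp in KO CMs at its TSS and no broad locus. Intercalated disc genes had 7 of 14, among them *Tjp1* (34601 and 41368 bp) and the gap junction gene *Gja1* (19432 and 26365 bp, log2 ratio 0.44). Ion channels had 2 of 12, *Kcnq1* (20150 and 21785 bp) and *Kcnj3* (15326 and 15397 bp).

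Adrenergic and cyclic AMP genes had 8 of 12. *Pde3a*, a phosphodiesterase that degrades cyclic AMP, had 32950 bp in control and 30104 bp in KO CMs, and *Pde4d*, another, had 26040 and 19466 bp (log2 ratio -0.42), as 1 control region of 26040 bp and as KO regions of 3610, 13947 and 1909 bp. The β1-adrenergic receptor gene *Adrb1* was covered over 11261 bp in control and 12565 bp in KO CMs, and the region over its TSS was 965 bp in control CMs and the whole 12565 bp in KO CMs. *Adra1b* had 16742 and 17450 bp. Immediate early genes had 8 of 19, of which 7 were longer and 1 shorter in KO CMs, none by over 1.5-fold: *Btg2* (34563 and 35233 bp), *Klf9* (33521 and 33984 bp), *Dusp1* (17768 and 21194 bp), *Zfp36l1* (15742 and 19645 bp), *Klf6* (15124 and 18361 bp), *Zfp36* (13597 and 15826 bp), *Fosl2* (13507 and 14350 bp) and *Jun* (10732 and 10086 bp). Nothing is read from the 7 and 1, as the median log2 ratio of all broad loci was above 0. Immediate early genes respond rapidly to stimuli, which can include the isolation of cells, and the part of the isolation was not tested.

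Fetal and stress response genes had 3 of 13, with *Bag3*, a co-chaperone of the Z-disc, at 21380 bp in control and 20756 bp in KO CMs, *Ccn1* at 17753 and 17978 bp and *Fhl2* at 9520 and 13769 bp (log2 ratio 0.53). The natriuretic peptide gene *Nppa* had no region at its TSS in either list. Secreted growth factors had 3 of 11, *Fgf1* (21209 and 17566 bp), *Fgf16* (14454 and 15858 bp) and *Vegfa* (11003 and 14407 bp), and circadian clock genes 2 of 16, *Cry2* (13174 and 14499 bp) and *Bhlhe41* (12282 and 12808 bp).

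Among the genes that the study names from its H3K27ac experiment, *Nrip1*, *Adrb1*, *Acot7*, *Adra1a* and *Dgat2* had a broad locus at the gene. *Adra1a*, an α1-adrenergic receptor gene, had 10445 bp in control and 10491 bp in KO CMs in a locus within the gene, and *Dgat2*, which catalyzes the last step of triglyceride synthesis, had 12763 and 13349 bp. *Acacb*, *Cpt1a*, *Fabp3*, *Acsm5*, *Echdc2*, *Tcap*, *Kcnj2*, *Gpam* and *Suclg2* had none.

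The label of the cells was checked against markers. Of 10 CM markers, all had a TSS in a locus and 4 (*Pln*, *Tnnt2*, *Myl2*, *Actc1*) in a broad one. Of 10 fibroblast markers, 1 (*Col3a1*) had a TSS in any locus, with a control region of 1815 bp, and none in a broad one. Of 8 macrophage and leukocyte markers none had a region at its TSS, and of 8 smooth muscle and pericyte markers 3 had one and none in a broad locus, although the body of *Notch3* touched a broad locus covered over 11723 bp in control and 17031 bp in KO CMs. Endothelial markers were different: 9 of 10 had a TSS in a locus and 2 in a broad locus, *Tek* (15181 bp in control and 14471 bp in KO CMs) and *Erg* (15942 and 18004 bp), and the bodies of *Pecam1* and *Kdr* touched others. A locus of the list therefore need not come from CMs, and the part of endothelial or mural cell nuclei was not tested.

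The other 1361 broad loci (57.7%) held no protein-coding TSS. Of these, 161 (11.8%, interval 10.2% to 13.7%) held the TSS of a long noncoding RNA, against 2.35% (2.21% to 2.49%) of other loci without a protein-coding TSS, which are shorter. Per Mb, the former held 7.90 such genes and the latter 9.55. Their midpoints lay 48452 bp from the nearest protein-coding TSS at the median (quartiles 24028 and 94467 bp), against 34886 bp for the others. A protein-coding gene body was touched by 940 of them (69.1%), 421 lay outside, and 317 (23.3%) were over 100000 bp from a TSS.

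Some genes were the nearest to several broad loci. Another broad locus lay within 50000 bp of 1182 broad loci (50.1%), with no like share for other loci to set beside it. In all, 1585 genes were the nearest to at least 1, 458 to at least 2, 60 to at least 4 and 31 to at least 5. Some neighbors are parted by a short gap only, so these counts depend in part on where the caller broke a stretch. Near *Qk*, 1 locus ended at chr17:10384295 and the next began at chr17:10384759. *Zbtb20*, a zinc-finger repressor, had 11 with 175009 bp covered in control and 207913 bp in KO CMs. *Klf6*, an immediate early zinc-finger factor, also had 11, with 199723 and 191174 bp, strung out to 603006 bp from the TSS. *Qk*, an RNA-binding regulator of splicing, had 10 with 238662 and 251428 bp, and *Nfib*, a nuclear factor I gene, had 9 with 211510 and 198497 bp. *Ppara* had 4 with 44835 bp in control and 68204 bp in KO CMs, *Atp2a2* 4 with 48720 and 64523 bp, and the insulin receptor gene *Insr* 4 with 49842 and 62233 bp. Summed over the loci of a gene, *Zbtb20* and *Ppara* were longer in KO CMs and *Klf6* and *Nfib* in control CMs. On the X chromosome lay 32 broad loci (1.36%) and 1.87% of the other loci.

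Matches to cardiac motifs were counted in the DNA of the loci on both strands. A MEF2 match occurred 3.21 times per 100 kb of broad locus (1373 matches in 999 loci), 3.66 times in other loci and 2.26 times in the genome. The ratio of broad to other loci was 0.876 (interval from the match counts 0.825 to 0.930). An ERR match occurred 3.21 times per 100 kb of broad locus, 3.31 times in other loci and 2.22 times in the genome, a ratio of broad to other loci of 0.968 (0.912 to 1.03). The densities in broad loci were 1.42 and 1.45 times those in the genome for MEF2 and ERR, respectively, and the interval against other loci lay below 1 for MEF2 and took in 1 for ERR. ERR matches occurred 3.57 times per 100 kb in loci broad in KO CMs only, 3.08 in those broad in both lists and 3.11 in those broad in control CMs only, and for MEF2 those values were 3.12, 3.11 and 3.76. In the central 1000 bp, 69 of 2357 broad loci (2.93%) and 4.49% of other loci held a MEF2 match. All regions of a list were 1846 bp (control) and 2291 bp (KO) wide at the median. This window therefore took in much more of a typical other locus than of a broad one, and these shares compare unlike parts of a locus.

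The densities of the other motifs in broad and other loci were close: GATA 15.03 and 15.3 per 100 kb, TEAD (CATTCCA) 18.1 and 17.4, NKX2-5 (CACTTAA) 14.6 and 14.4, T-box (AGGTGTGA) 4.65 and 4.37, the CArG box 5.72 and 5.48 and AP-1 (TGANTCA) 32.9 and 32.4. The GC box (GGGCGGG), a common promoter element, was less dense in broad loci, 13.3 against 20.9. GC content was 44.5% in broad loci, 45.3% in other loci and 41.8% in the genome, and CpG made up 1.19%, 1.48% and 0.834% of dinucleotides. Single loci were rich in a motif, with 6 MEF2 matches at *Dyrk1a* and 5 each at *Hadhb*, *Mef2c* and *Lpl*, and 8 ERR matches each at *Deptor*, which encodes an mTOR-binding protein, and the kinase gene *Pim1*. A match is a stretch of letters and no evidence that a factor was bound there.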

How the data were processed

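H3K27ac CUT&RUN and IgG libraries of control and RIP140-null CMs (3 of each per genotype) were processed by the authors. Reads were aligned to GRCm38 with Bowtie2 (version 2.4.2), duplicates were removed with SAMtools, regions were called per replicate against IgG with HOMER (version 4.11.1, histone style), and regions found in at least 2 of 3 replicates were merged into 1 list per genotype, per the methods and the submitters' processing notes. The deposited files hold the positions of regions in bp and a score column in which the authors' value is 1 for every region, so the score was not used. Counts of reads were not used here, so the depth of each sample is unknown.

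Positions were made 1-based. Regions of both lists on chromosomes 1 to 19 and X that overlapped by 1 bp or more were joined into loci, and loci with a region of at least 10000 bp in either list were kept. Left out were 25 control and 18 KO regions on other sequences, 1 of which, from the KO list, reached 10000 bp. Covered length is the sum of region widths of a list in a locus. With 1 merged list per genotype no test between genotypes was possible, and differences are described by the log2 ratio and a limit of 1.5-fold. A TSS is the start of any protein-coding transcript of the GENCODE M21 basic annotation, and the principal TSS is that of the APPRIS principal transcript. Motifs were searched on both strands, and sequences come from GRCm38 and RefSeq (GRCm38.p6), of whose promoters 200 of 200 compared were identical to the genome. The members and gene lists were chosen with earlier results of these data known.

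Genes were named by rule: the 15 longest loci, the 10 highest and 10 lowest log2 ratios (loci absent from a list ranked by length in the other), up to 6 members of each list by span, *Nrip1* and genes the study names for H3K27ac, and 3 loci on either side of the limit. Further members of a list, genes with several loci, motif-rich loci, miRNAs and genes for which a sequence is shown were chosen after their values were seen. Some genes that the rule names are not reported here. Python 3.11.15, numpy 2.4.6, pandas 2.3.3, scipy 1.17.1, pysam 0.24.0, numba 0.67.0 and matplotlib 3.10.9 were used. Tested on 2000 simulated loci, the code found 443 of 443 broad ones and all 300 planted matches of each motif. Alternatives tried were other width limits, overlaps and joining distances, the limit met in given lists, the widest region in place of covered length, all annotated TSSs, the fold limit, autosomes alone and the center of loci.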

Additional observations from a re-analysis of the deposited data

How the results depend on the processing

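No paired analysis was possible because each genotype is 1 merged list with no value per replicate, and for the same reason no replicate could be left out. Of 78 values under alternatives, 37 moved little, 40 moved and 1 reversed. With a minimum width of 15000 bp there were 896 broad loci, 393 of them broad in both lists, 23 over 1.5-fold longer and 6 shorter in KO CMs, 50.4% with a protein-coding TSS, 86.3% of length downstream of the TSS at the median, and 55 list genes. With 8000 bp there were 3839, 1881 of them in both lists, 355 longer and 141 shorter, 39.1% with a TSS and 81.4% downstream.

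Where regions were joined only on an overlap of 50% of the shorter, 230 loci were longer and 122 shorter, and 39.5% held a TSS. Where regions within 1000 bp were joined first, 1817 loci were broad in both lists, the median log2 ratio was 0.044, and 309 were longer and 191 shorter. The direction of the median depended on which list chose the loci: with the limit met in the control list there were 1561 loci, the median reversed to -0.018, 3 were longer and 44.5% held a TSS, and with the limit met in the KO list it was 0.10, with 1 shorter and 45.1% holding a TSS. With the limit met in both lists there were 1114 loci, a median of 0.024, 3 longer, 1 shorter, 50.3% with a TSS and 85.9% downstream. These changes follow from the construction of the alternatives. The same number of widest regions from each list gave a median of 0.038. Measured by the widest single region in place of covered length, the median was 0.18, with 730 longer and 330 shorter. A 2-fold limit left 48 longer and 13 shorter. TSSs of all annotated genes lay in 53.8% of broad loci. In the central 1000 bp of each locus, a larger part of a typical other locus than of a broad one, the MEF2 ratio of broad to other loci was 0.642. No value moved on autosomes alone, and the ERR ratio was between 0.932 and 0.965 in the alternatives run for it.

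Positions without heights cannot show a change in the strength of acetylation inside a region, a gap between regions can be a dip just below the caller's threshold, and the limits of a difference between genotypes are not known without replicate values.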

Other observations

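In 93 cases a whole protein-coding gene lay inside a broad locus. The longest was *Palmd*, which encodes palmdelphin, with 50730 bp in a locus of 62290 bp, followed by *Dhrs3* (35383 bp in 76680 bp), *Lpl* (26958 bp in 64218 bp), *Cd200*, a membrane glycoprotein gene (26919 bp in 46198 bp), *Cdc42ep3* (21365 bp in 31690 bp), and *Slc16a1*, the lactate transporter MCT1 (19795 bp in 42979 bp).

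Other genes with several broad loci nearest to them were *Zfp36l1*, an mRNA-decay factor (10 loci, 137179 bp covered in control and 151179 bp in KO CMs), *Nfia* (7 loci, 143629 and 146197 bp), *Ablim1* (6 loci, 188120 and 197197 bp), *Camk2d*, the main cardiac CaM kinase II gene (6 loci, 87745 and 91919 bp), and *Acvr2a*, an activin receptor gene (5 loci, 106839 and 92860 bp). The ERR-rich locus of *Capn2*, a calpain gene with 7 matches, was covered over 9701 bp in control and 15507 bp in KO CMs, that of *Deptor* over 13029 and 15468 bp, and that of *Pim1* over 16465 and 15607 bp. These genes were chosen after their values were seen.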
